A study of Mus musculus with 2 samples.

Results

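The Mir199 and Mir214 genes are the 4 microRNA (miRNA) genes Mir199a-1, Mir199a-2, Mir199b and Mir214, all of which lie within genes of the dynamin family. They were chosen by name from the 2202 miRNA genes counted in the study. The choice did not use their measured values, though earlier results of these data were known. The miRNAs came from 2 small RNA libraries of C2C12 myotubes at 72 h of differentiation. C2C12 is a mouse myoblast line, taken from injured thigh muscle of the C3H strain, whose cells fuse into multinucleated muscle fibres. The libraries are biological replicates 1 and 2 of 1 group, made from separate biosamples of the same line. The labels list no treatment, no genetic change and no undifferentiated control, so values were compared between genes and between the libraries.

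A miRNA gene is transcribed as a longer RNA that folds into a hairpin, and both arms of the hairpin can yield a mature miRNA. The mature strand guides a silencing complex to messenger RNAs, mainly through its seed, the bases numbered 2 to 8 from its 5′ end. Dynamins are GTPases that pinch off membrane vesicles. Mir199a-2 and Mir214 are known to be made from 1 long non-coding RNA, Dnm3os, which the transcription factor Twist1 activates in mouse embryos. In mouse skeletal muscle cells miR-214 is known to repress Ezh2, a Polycomb methyltransferase that holds muscle genes silent. The miR-199a arms are known to repress regulators of growth and Wnt signalling, among them mTOR, and have been studied in C2C12 differentiation.

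The mature arms are printed first because they decide which reads a count per gene can hold. The sequences are from RefSeq on GRCm38.p6, the assembly also called mm10, and the seed is in capitals.

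miR-199a-5p, from Mir199a-1 and Mir199a-2: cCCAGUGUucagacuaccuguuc

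Mir199b hairpin, bases 26 to 48: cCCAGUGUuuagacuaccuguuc

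miR-199a-3p and miR-199b-3p, from all 3 Mir199 genes: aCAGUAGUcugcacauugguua

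miR-214-5p, from Mir214: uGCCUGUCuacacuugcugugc

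miR-214-3p, from Mir214: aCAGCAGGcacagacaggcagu

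miR-761, from Mir761: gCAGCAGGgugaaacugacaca

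The 3p arm was the same 22 bases in all 3 Mir199 genes, and the 5p arm was the same 23 bases in Mir199a-1 and Mir199a-2. The aligned window of the Mir199b hairpin differed from miR-199a-5p by 1 base, C10U, with positions counted from 1 at the 5′ end of miR-199a-5p. The difference lies outside the seed, so the 5p seed CCAGUGU was common to all 3 Mir199 hairpins. Neither arm of Mir214 was shared with another gene. Among the 1674 distinct mature arms in the RefSeq table, the seed of miR-214-3p was held by 1 other, miR-761. Mir761 had 0 reads in both libraries, which allows a level of up to 0.396 CPM (read counts scaled to a total of 1000000 miRNA reads) in replicate 1, and of up to 0.304 CPM in replicate 2.

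The whole hairpins show where the copies differ. Here the capitals mark the mature arms and, in Mir199b, also the aligned 5p window.

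Mir199a-1: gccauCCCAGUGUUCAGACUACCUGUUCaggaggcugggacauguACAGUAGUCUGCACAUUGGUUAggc

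Mir199a-2: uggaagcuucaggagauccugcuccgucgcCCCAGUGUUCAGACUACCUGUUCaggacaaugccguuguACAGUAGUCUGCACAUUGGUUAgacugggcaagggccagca

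Mir199b: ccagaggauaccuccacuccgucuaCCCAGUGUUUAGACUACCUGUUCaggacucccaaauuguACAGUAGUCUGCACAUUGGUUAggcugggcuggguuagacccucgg

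Mir214: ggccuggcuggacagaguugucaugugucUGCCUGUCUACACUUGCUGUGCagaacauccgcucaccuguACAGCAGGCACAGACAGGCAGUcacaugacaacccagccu

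In the mm10 files and GENCODE release M21, Mir199a-1 (ENSMUSG00000065547.1) is on the minus strand of chromosome 9 at 21496495 to 21496564. It lies in an intron of Dnm2, the dynamin found in most cell types, whose gene runs on the plus strand. Mir199b (ENSMUSG00000092807.1) is on the plus strand of chromosome 2 at 32318460 to 32318569, in an intron of the minus-strand gene Dnm1, the dynamin of nerve terminals. Chromosome 1 holds both remaining genes on its plus strand, Mir199a-2 (ENSMUSG00000070126.1) at 162217814 to 162217923 and Mir214 (ENSMUSG00000065516.1) at 162223368 to 162223477. Mir199a-2 and Mir214 lie in introns of the minus-strand gene Dnm3 and overlap exons of the plus-strand gene Dnm3os, and 5444 bases separate them. All 4 genes therefore run opposite to the dynamin gene around them. The only other counted miRNA gene within these host genes was Gm23363 (chromosome 2, 32318265 to 32318343, plus strand), which had 0 reads in replicate 1 and 1 read in replicate 2.

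Mir214 supplied nearly all reads assigned to the group in these myotubes, and few reads were assigned to the 3 Mir199 genes. Exact reads of the shared Mir199 arms are taken to be missing from these counts, as described below. Replicate 1 had 7581366 reads on the own strand of a miRNA gene and replicate 2 had 9865298, and these totals are the denominators of CPM. Because no molecular identifiers are mentioned in the labels, reads rather than molecules were counted, and the intervals and floors describe counting error alone. Every value of the 4 genes was above the floor of 3 reads, given above for Mir761. All 4 reached 2 CPM in both libraries, the level used here for detection, as did 274 of the 2202 genes (12.4%). Together the 4 genes supplied 0.248% of all miRNA reads to replicate 1 and 0.341% to replicate 2, a mean of 0.295% ± 0.0656 (SD, n = 2).

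Mir214 had 17888 reads in replicate 1 and 32838 reads in replicate 2. That is 2359 CPM (95% exact Clopper-Pearson interval 2325 to 2394) and 3329 CPM (3293 to 3365), or 2844 ± 685 CPM (SD, n = 2). Mir214 ranked 39 among all miRNA genes in replicate 1 and 27 in replicate 2. By mean CPM its neighbours were Mir221 above, at 2905 ± 1429 CPM, and Mir30e below, at 2835 ± 604 CPM (SD, n = 2). Both are near Mir214 in level by choice, and neither differed from Mir214 by more than the spread between the libraries. Its share of the reads of the 4 genes was 95.1% in replicate 1 and 97.6% in replicate 2.

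Mir199b, the Dnm1-hosted copy, had 655 reads in replicate 1 and 429 reads in replicate 2. Its level was 86.4 CPM (79.9 to 93.3) and 43.5 CPM (39.5 to 47.8), or 64.9 ± 30.3 CPM (SD, n = 2). Mir199b had the most assigned reads of the 3 Mir199 genes in both libraries. Mir199a-2, the Dnm3os-hosted copy, had 222 reads in replicate 1 and 225 reads in replicate 2, which is 29.3 CPM (25.6 to 33.4) and 22.8 CPM (19.9 to 26.0), or 26.0 ± 4.58 CPM (SD, n = 2). Mir199a-1, the Dnm2-hosted copy, was the lowest of the 4 genes in both libraries. It had 54 reads in replicate 1 and 150 reads in replicate 2, which is 7.12 CPM (5.35 to 9.29) and 15.2 CPM (12.9 to 17.8), or 11.2 ± 5.71 CPM (SD, n = 2).

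**Figure D1:**
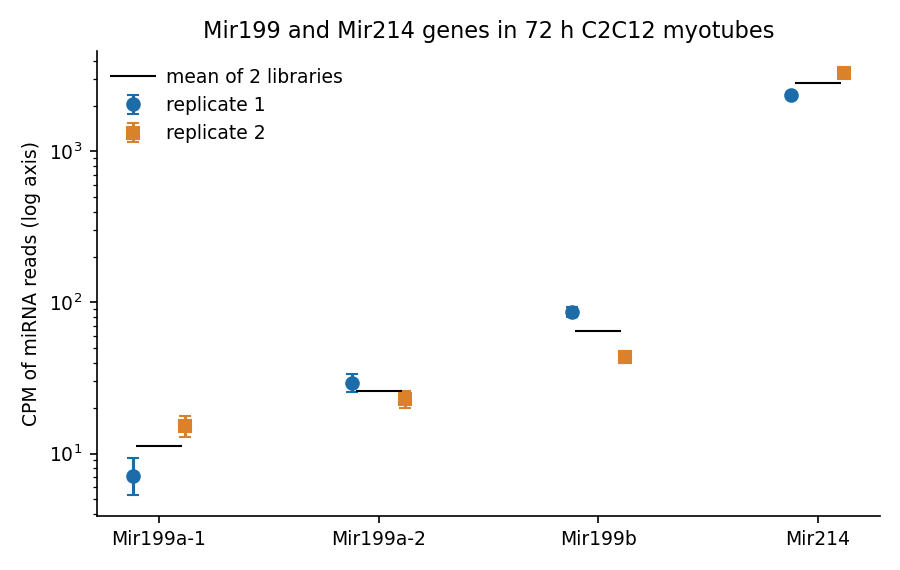
CPM of miRNA reads (vertical log axis) for the 4 genes in replicate 1 (circles) and replicate 2 (squares), with 95% exact Clopper-Pearson intervals that cover counting error only and the mean of both libraries as a dash. Mir214 stands at 2359 and 3329 CPM, and the highest value of a Mir199 gene is 86.4 CPM.

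Read for read, the order Mir214, Mir199b, Mir199a-2, Mir199a-1 was the same in both libraries, and the values of neighbours in that order did not overlap. The lower pair was also compared per length of the annotated hairpin, which is 70 bases for Mir199a-1 and 110 bases for the others. The mature arms of Mir199a-1 and Mir199a-2 have the same lengths, and whether reads scale with hairpin length was not tested. Per 100 hairpin bases, Mir199a-1 was at 10.2 CPM in replicate 1 and 21.7 CPM in replicate 2. On the same scale Mir199a-2 was at 26.6 CPM in replicate 1 and 20.7 CPM in replicate 2, so their order differed between the libraries. On this scale Mir199b was at 78.5 and 39.5 CPM and Mir214 was at 2145 and 3026 CPM, and their places did not change.

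The counts of the 3 Mir199 genes are uncertain because reads with more than 1 mapping place have a summary line of their own. They are taken here as counted for no gene, a rule that the sources do not state. There were 3378438 such multimapping reads in replicate 1 against 3295854 in replicate 2, which is 3629 and 4099 for each read counted at a Mir199 gene. How many of them carried a miR-199 arm was not tested. An exact read of the shared arms alone matches more than 1 gene. Under this rule, among exact reads, the counts hold those with bases beyond those arms or, for Mir199b, those across the base that differs.

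How many extra bases a read needs was worked out against every counted miRNA hairpin on both strands, allowing no mismatch. The 23-base 5p window of Mir199b was found in no other hairpin as it stood. For miR-199a-5p, 1 extra base at the 5′ end or 5 extra bases at the 3′ end set Mir199a-1 and Mir199a-2 apart. For miR-199a-3p, Mir199a-2 needed 2 extra bases at the 3′ end or 5 at the 5′ end. Mir199a-1 needed 4 extra bases at the 5′ end of that arm, and no extension at the 3′ end sufficed within its annotated hairpin, which ends 3 bases after the arm. The 3p arm of Mir199b needed 4 extra bases at the 3′ end or 5 at the 5′ end. Both arms of Mir214 were unique without any extension.

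Of the windows of 22 bases, 36 of 49 (73.5%) in Mir199a-1 were found in no other counted hairpin. The share was 77 of 89 (86.5%) in Mir199a-2, 81 of 89 (91.0%) in Mir199b and 89 of 89 in Mir214. The order of the 4 genes by these shares was the same as their order by CPM. Each share also depends on the annotated hairpin length, 70 bases for Mir199a-1 and 110 bases for the others, and counts windows outside the arms. The match in order is a description over 4 genes, and the search covered hairpins and not the rest of the genome. The longest run shared by Mir199a-1 and Mir199a-2 was 27 bases, by Mir199a-1 and Mir199b 28 bases, and by Mir199a-2 and Mir199b 27 bases. No Mir199 hairpin shared more than 7 bases in a row with Mir214.

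**Figure D2:**
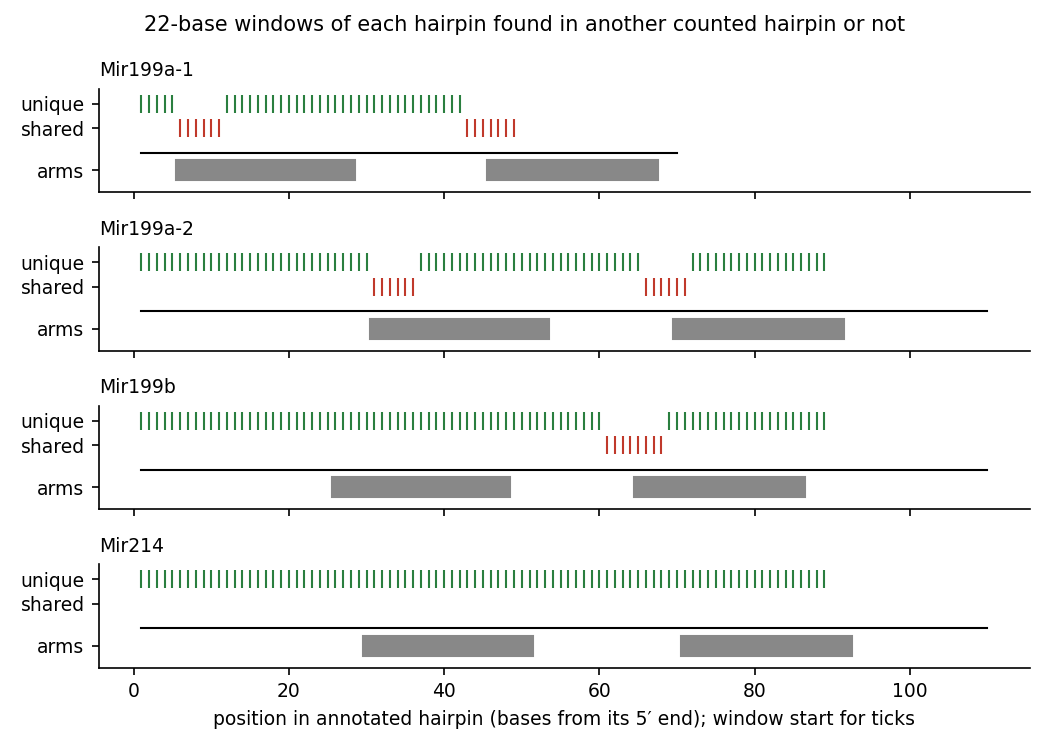
Windows of 22 bases along each annotated hairpin (horizontal axis, start of the window in bases from the 5′ end), drawn as green ticks where found in no other counted hairpin and red ticks where shared; grey boxes mark the mature arms and, in Mir199b, also the aligned 5p window. The shared windows lie around the arms of the Mir199 hairpins, and all 89 windows of Mir214 are unique.

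Ratios set the copies beside their single-copy partner. The 3 Mir199 genes together had 931 reads in replicate 1 and 804 reads in replicate 2, against 17888 and 32838 reads for Mir214. Their log2 ratio to Mir214 was -4.26 in replicate 1 and -5.35 in replicate 2, with 0.5 reads added to each count, so Mir214 was 19.2-fold and 40.8-fold higher than their sum. Divided by the summed hairpin length of the genes, the mean log2 ratio was -6.21 in place of -4.81. To bring the sum up to Mir214, 0.502% of the multimapping reads of replicate 1 and 0.972% of those of replicate 2 would have to be Mir199 reads. The ratio is therefore one of assigned reads, and no measure of mature miR-199 against mature miR-214.

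Within Dnm3os, Mir199a-2 was at a log2 ratio to Mir214 of -6.33 in replicate 1 and -7.19 in replicate 2, with a mean of -6.76 ± 0.61 (SD, n = 2). Mir199b exceeded the summed Mir199a copies by 1.25 on the log2 scale in replicate 1 and by 0.19 in replicate 2, with a mean of 0.72 ± 0.74 (SD, n = 2). The sign of this Mir199b ratio was the same in both libraries, but its mean was smaller than its SD. These ratios were left untested, since 0.5 is the smallest two-sided p that an exact paired permutation test can reach with 2 libraries.

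The 3 copies took different parts of the assigned Mir199 reads in the 2 libraries. Which reads can be assigned differs between the copies, as given above, so these are not parts of all miR-199. Mir199b made up 70.4% of them in replicate 1 (95% exact Clopper-Pearson interval 67.3 to 73.3%) and 53.4% in replicate 2 (49.8 to 56.9%). Mir199a-1 made up 5.80% in replicate 1 (4.39 to 7.50%) and 18.7% in replicate 2 (16.0 to 21.5%). For both genes the intervals of the libraries did not overlap. Mir199a-2 made up 23.8% in replicate 1 (21.1 to 26.7%) and 28.0% in replicate 2 (24.9 to 31.2%), and these intervals overlapped. These intervals hold counting error alone, and the spread between biosamples is not in them.

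**Figure D3:**
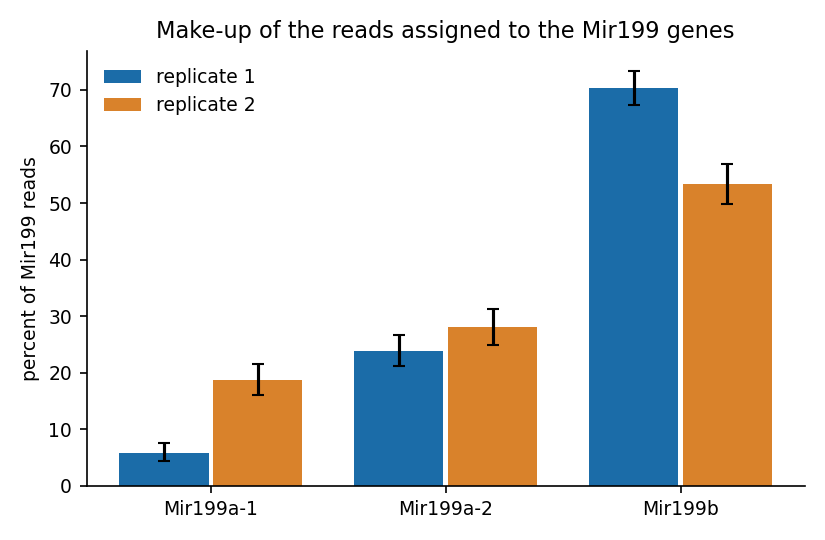
Percent of the reads assigned to the 3 Mir199 genes (vertical axis) that each gene took in replicate 1 (blue bars) and replicate 2 (orange bars), with 95% exact Clopper-Pearson intervals. Mir199b takes the most in both, and Mir199a-1 takes 5.80% in replicate 1 and 18.7% in replicate 2.

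The Mir199a-2 and Mir214 pair was set beside 12 other pairs of a gene with a copied arm and 1 chosen single-copy neighbour in the same cluster. These pairs were chosen with earlier results of these data known, so the comparison describes the chosen pairs only. In all 12 the gene with the copied arm had fewer reads than that neighbour in both libraries, but the direction depends on which neighbour is taken. With neighbours named after their values were seen, Mir92-1 had 2895 and 3638 reads against 92 and 159 reads for Mir19a. Mir24-2 had 16227 reads in replicate 1 and 38986 reads in replicate 2, against 24412 and 19131 reads for Mir27a. The mean log2 ratio was -6.76 for Mir199a-2 to Mir214, against a median of -3.49 and a range from -9.70 to -0.70 for the 12 pairs. The lower one was Mir29b-1 to Mir29a at -9.70 ± 0.33 (SD, n = 2), and the next above was Mir125b-2 to Mir99a at -6.57 ± 0.02 (SD, n = 2), which lay within the spread of the Mir199a-2 ratio. In each of the 12 pairs 1 of the 2 arms of the copied gene was shared with another gene, whereas both arms of Mir199a-2 were shared. The pairs differ in which arm is shared, and what that does to each ratio was not tested.

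**Figure D4:**
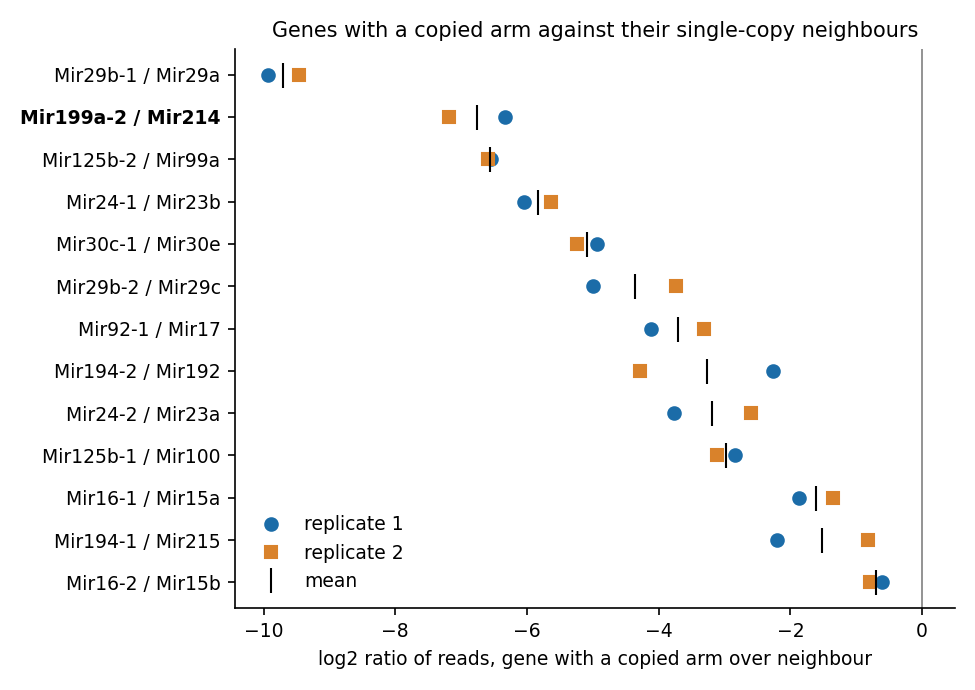
Log2 ratio of reads of a gene with a copied arm over its single-copy neighbour (horizontal axis) for 13 pairs, with replicate 1 as circles, replicate 2 as squares and the mean as a bar; the grey line marks equal reads. Mir199a-2 to Mir214 (bold) has the second lowest mean, at -6.76, and every pair lies below 0 in both libraries, with the neighbours chosen here.

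The 4 genes differed between the libraries in opposite directions. Mir199a-1 and Mir214 were lower in replicate 1 than in replicate 2, and Mir199b and Mir199a-2 were higher there. Each gene was tested with an exact two-sided binomial test on reads with TMM-scaled library sizes, adjusted by the Benjamini-Hochberg method over the 415 genes with 10 or more reads in all. This compares these libraries, not conditions, and takes only counting error into account. All 4 passed an adjusted p of 0.05, 2 in each direction, where 55.7% of the genes tested passed, 30.4% as higher in replicate 1 and 25.3% as higher in replicate 2. Among the 206 genes with at least as many reads as Mir199a-1, the lowest of the 4, 87.9% passed, so a pass of all 4 does not set them apart.

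Mir199b was 1.94-fold higher in replicate 1, a log2 difference of 0.96 (exact binomial test, adjusted p = 8.16e-27). Mir199a-1 was 2.17-fold higher in replicate 2, a log2 difference of -1.12 for replicate 1 over replicate 2 (exact binomial test, adjusted p = 7.93e-07). Differences of at least the size seen for Mir199b were found in 24.1% of the 274 detected genes, and of at least the size seen for Mir199a-1 in 16.4%. Mir214 was 1.44-fold higher in replicate 2, a log2 difference of -0.53, with an adjusted p too small for the software to hold. Differences of this size or more were found in 48.9% of detected genes, so the shift of Mir214 was near the middle of the range. Mir199a-2 was the steadiest of the 4 and was 1.26-fold higher in replicate 1, a log2 difference of 0.33 (exact binomial test, adjusted p = 0.0316). That call was lost with DESeq2 size factors (adjusted p = 0.0510) and when all genes with a read were tested (adjusted p = 0.0529). The coefficient of variation over both libraries was 17.6% for Mir199a-2, 24.1% for Mir214, 46.7% for Mir199b and 51.2% for Mir199a-1.

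**Figure D5:**
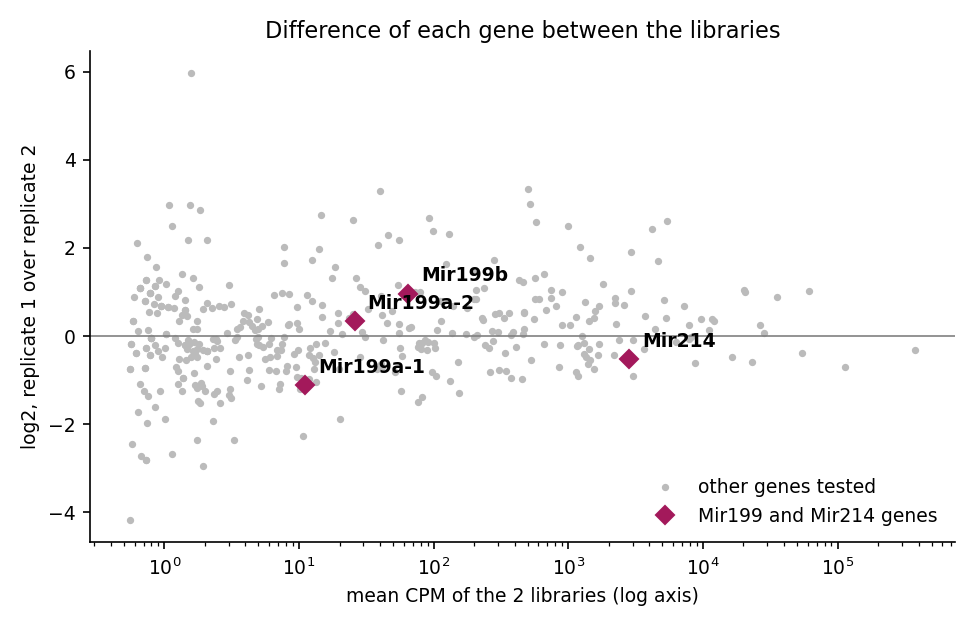
Log2 difference of replicate 1 over replicate 2 (vertical axis) against mean CPM (horizontal log axis) for the 415 genes tested, with the Mir199 and Mir214 genes as diamonds and the others as grey points. Mir199a-1 at -1.12 and Mir214 at -0.53 lie below 0, and Mir199a-2 at 0.33 and Mir199b at 0.96 lie above it.

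The genes nearest to each of the 4 in level were found by the distance in log2(CPM + 1) over the 2 libraries, which is a likeness of level over 2 points only. For Mir214 they were Mir30e, Mir24-2 and Mir191, at distances of 0.041, 0.28 and 0.35. Mir30e had 2408 CPM in replicate 1 and 3262 CPM in replicate 2. For Mir199b the nearest were Mir421, Mir190a and Mir331, at 0.22, 0.40 and 0.42. For Mir199a-2 they were Mir7-1, Mir103-2 and Mir138-2, at 0.14, 0.23 and 0.29. For Mir199a-1 they were Mir5114, Mir5126 and the cardiac myosin miRNA Mir208a, at 0.11, 0.16 and 0.16. The 4 genes were left out of this search as neighbours, so it does not show how near they lie to each other in level.

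The genes run opposite to protein-coding hosts, as 306 of the counted miRNA genes do. Of those 306, 24 (7.84%) were detected in both libraries, against 148 of the 969 (15.3%) that lie on the same strand as a protein-coding gene. Mir214 had the mean CPM of rank 3 among the opposite-strand genes, below Mir99a at 28592 ± 1263 CPM and Mir34c at 4214 ± 4124 CPM (SD, n = 2). Reads from the dynamin strand itself were almost absent. Mir214 had 2 opposite-strand reads in replicate 1 and 0 in replicate 2, and the 3 Mir199 genes had 0 in both.

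MiR-214 is one of several miRNAs reported to repress Ezh2, and Mir214 had more reads than any other gene of that list. Mir214, at 2359 and 3329 CPM, was above the highest of the 10 other listed genes, Mir26b, at 1198 CPM in replicate 1 and 584 CPM in replicate 2. Mir101b followed at 360 ± 94.9 CPM, Mir101a at 103 ± 43.0 CPM and Mir26a-2 at 68.4 ± 7.79 CPM (SD, n = 2). The 3 Mir124a genes, which are neuronal, had no read. The Mir26a, Mir138 and Mir124a genes have copies with a shared arm, so their counts may lack multimapping reads and the order is one of assigned reads. Of the 7 listed genes tested, 4 were higher in replicate 1 and 2 were higher in replicate 2, with a median log2 difference of 0.20, against 0.016 for all genes tested. Over all genes tested, 30.4% were higher in replicate 1 and 25.3% were higher in replicate 2.

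Mir199 and Mir214 are often reported from fibroblasts and other mesenchymal cells, so 16 miRNA genes linked to those cells were described beside them. Mir214, at 2359 CPM in replicate 1 and 3329 CPM in replicate 2, was below the median of the 16 genes in the first, 2906 CPM, and above it in the second, 1696 CPM. All 3 Mir199 genes were below that median in both libraries. This holds for assigned reads, since the counts of the Mir199 genes may lack multimapping reads. Of the 16 genes, 15 were detected in both libraries. Of the 15 listed genes tested, 10 were higher in replicate 1 and 4 were higher in replicate 2, with a median log2 difference of 0.42, against 30.4%, 25.3% and 0.016 over all genes tested. These listed genes are mostly abundant, and 87.9% of the genes with at least as many reads as Mir199a-1 passed. Mir21a, the highest, had 82317 CPM in replicate 1 and 39501 CPM in replicate 2, while Mir145a moved the other way, as Mir214 did, with 1897 CPM and 2489 CPM.

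The label of the cells was checked against 5 muscle miRNAs, of which 1, Mir208a, is cardiac. All 5 were detected, against 12.4% of the 2202 genes counted. These 5 genes supplied 35.5% of the miRNA reads to replicate 1 and 42.8% to replicate 2, most of it from Mir206, at 34.1% and 41.7%. The muscle genes Mir1a-1, Mir1a-2, Mir133a-1 and Mir133a-2 were not on this list and are named after their values were seen. Mir1a-1 was detected, at 3.03 and 2.84 CPM, and the others were below 2 CPM in at least 1 library. These 4 have copies elsewhere, so their counts, like those of the Mir199 genes, may lack multimapping reads. The 6 neuronal markers took 0 reads in replicate 1 and 1 read in replicate 2, at Mir9-3. Of 6 epithelial markers 1 was detected (16.7%), Mir205, with 33 reads in each library, a share no lower than that of all genes. Mir200c had 25 reads in replicate 1 and 4 in replicate 2, and Mir141 had 8 and 15. Mir200b had 0 and 2 reads, and Mir200a and Mir429 had 0. Of 5 blood markers 2 were detected, with a summed share of 0.0105% in replicate 1 and 0.0183% in replicate 2. The endothelial marker Mir126a was at 217 CPM in replicate 1 and 42.9 CPM in replicate 2, and so differed in the direction of Mir199b and Mir199a-2. The blood marker Mir142 was at 89.0 CPM in replicate 1 and 178 CPM in replicate 2, as Mir199a-1 and Mir214 differed, while the blood marker Mir451a went the other way, at 11.9 CPM and 3.65 CPM. The part of these markers in the differences was not tested.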

How the data were processed

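Raw read counts for each miRNA gene were deposited by the authors as 1 table per library, on mm10 with the M21 annotation according to the accompanying deposited text. Which aligner, counter, trimming and read filters were used is not given in the sources used here. The tables give counts with strand ignored, on the gene's own strand and on the opposite strand, identified here from the values, and 4 summary lines, which were left out of totals. Multimapping reads have a summary line of their own and made up 22.0% of reads in replicate 1 and 17.9% in replicate 2. Unmapped reads were 22.7% and 23.1%, reads outside genes 5.88% and 5.57%, and reads that were ambiguous with strand ignored 4.83% and 8.05%, of 15349205 and 18450359 reads.

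Own-strand counts were divided by their sum over genes to give CPM. All 2202 identifiers matched GENCODE M21. Hairpins of the 4 genes matched RefSeq (GRCm38.p6) and were the same in GENCODE. Coordinates are 1-based. TMM factors came from edgeR 4.0.16 and alternative size factors from DESeq2 1.42.0 in R 4.3.3, and tests were run in Python 3.11.15 with scipy 1.17.1. The binomial test was tried on simulated Poisson counts that held counting error only. This cannot show how the test behaves with spread between biosamples. With 1 group, no quasi-likelihood test was made. Ratios used a pseudocount of 0.5 reads. The labels name separate biosamples, and the binomial p-values measure counting error only.

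The genes and lists were chosen with earlier results of these data known. Genes named were the 4 members, listed genes whose level is used, and for each member the 3 nearest in level. Gm23363, Mir761 and the leading opposite-strand genes were named outside this rule, as were the rank neighbours, Mir27a, Mir19a and the Mir1a and Mir133a genes. Alternatives were the strand-ignored counts, other denominators, size factors, pseudocounts and filters, each library left out and, added after the data were seen, ratios per hairpin base.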

Additional observations from a re-analysis of the deposited data

Results flagged for a closer look

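Reads that mapped to several places have a summary line of their own. They are taken to lie outside every count per gene and are not used in the comparisons. They numbered 3378438 in replicate 1 and 3295854 in replicate 2. The files do not divide them by sequence, and the part of them that came from the shared arms of the Mir199 genes was not tested.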

How the results depend on the processing

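Apart from the values that leave out a library, 62 values were recomputed. Of these, 50 kept their direction and side of the threshold or moved by less than 1 SD, and none reversed. Some settings could hardly move a value. Strand-ignored reads of the 4 genes were almost the same as own-strand reads, and the pseudocounts are small beside the reads in the ratios. The read filters leave the log2 difference of each of the 4 genes unchanged. With all reads as the denominator, the mean level was 13.3 CPM of all reads for Mir199a-2, 33.0 for Mir199b and 1473 for Mir214, and the 4 genes together took 0.152% of reads. With Mir206 left out of the denominator, the mean level was 18.4 CPM for Mir199a-1, 41.8 for Mir199a-2, 103 for Mir199b and 4644 for Mir214, and the 4 genes took 0.481%. Both settings only rescale each library. Per hairpin base, the log2 ratio of the summed Mir199 genes to Mir214 was -6.21, since the sum is then divided by the length of 3 hairpins. The difference of Mir199a-2 between the libraries lost its call with DESeq2 size factors (log2 0.30, adjusted p = 0.0510) and with all 708 genes that had a read (log2 0.33, adjusted p = 0.0529). Over its other alternatives its adjusted p in the exact binomial test ran from 0.0166 to 0.0327. Leaving out each library gives the value of the other, which with 2 libraries always lies within 1 SD of the mean and so says nothing of stability: 7.12 to 15.2 CPM for Mir199a-1, 22.8 to 29.3 for Mir199a-2, 43.5 to 86.4 for Mir199b, 2359 to 3329 for Mir214, and 0.248 to 0.341% for all 4. The ratios then ran from -5.35 to -4.26 for the summed Mir199 genes to Mir214, from 0.19 to 1.25 for Mir199b to the Mir199a copies, and from -7.19 to -6.33 for Mir199a-2 to Mir214. The number of genes that differed was 231 of 415 tested in the main setting and 230 of 415 with either other scaling. It was 215 of 396 with strand ignored, 205 of 240 with 100 or more reads and 221 of 708 with 1 or more reads. The share that differed therefore depends on the filter. Depth limits Mir199a-1 most, at 54 and 150 reads. No paired analysis was possible because there is 1 group, so no groups share replicate numbers; the ratios between genes are taken within each library.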
